A study of Rattus norvegicus with 6 samples.

Results

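The 6 genes Nfat5, Akr1b1, Slc5a3, Slc6a6, Slc6a12 and Slc14a2, of osmolyte and urea transport under the transcription factor NFAT5, were followed in rat renal cortex. They were found by matching the RefSeq transcript of each array probe to a gene's current rat symbol, and all 6 were found, out of 45788 genes or sequences on the array. Together they had 16 probes, of which 14 passed the filter on dim probes, so each gene had at least 1 measured probe. The animals were Sprague-Dawley rats, all male, aged 5 weeks when purchased. In the BBMP group, 3 rats were given the flame retardant 2,2-bis(bromomethyl)-1,3-propanediol at 1000 mg/kg/day over 4 weeks. In the control group, 3 rats were given its vehicle, corn oil, over the same time. Total RNA from the cortex of each animal was read on 1 one-colour Agilent array.

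NFAT5, also called TonEBP, is a transcription factor that accumulates in the nucleus of cells exposed to hypertonic surroundings. It binds a DNA element named TonE, the tonicity-responsive enhancer, and raises transcription of genes that load cells with small organic solutes, which balance external salt without disturbing proteins. In the kidney this programme is best known in the medulla, where salt and urea are most concentrated, while the cortex is close to isotonic. Among the genes studied here, Akr1b1 encodes aldose reductase, which makes sorbitol from glucose. Slc5a3 encodes the sodium and myo-inositol cotransporter, Slc6a6 the taurine transporter and Slc6a12 the betaine transporter. Slc14a2 encodes the UT-A urea transporters of the inner medullary collecting duct and the thin descending limb.

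Slc6a6 was the only one of the 6 genes that passed the test. Among the 4 genes with a promoter window, it was also the only one with a TonE match, so the stretch around that match is shown first. A link between this match and the signal of Slc6a6 was not tested. RefSeq windows of the GRCr8 assembly, 250 bases before to 50 after a start, were available for 4 of the 6 genes, in 5 windows. They were searched on both strands for the TonE core TGGAAA and for the TonE consensus, which contains the core. The Slc6a6 window held 1 match to both, on the reverse strand, at positions -161 to -151 from the start, and read in its own direction it was TGGAAAAATAC. Because part of that window lies inside the annotated span of the gene, only 30 bases around the match are given (chr4:125752331-125752360, plus strand). The core, read on the plus strand, is in capitals. These 30 bases also lie at least partly inside that span, although they come before the start used here. The windows of Slc5a3, Slc6a12 and Slc14a2 held no match, and the 250 bases before the start of Slc6a12 (chr4:156257268-156257517, plus strand) are given for comparison.
Slc6a6: ggccaagctggtattTTTCCAcccagcagg
Slc6a12: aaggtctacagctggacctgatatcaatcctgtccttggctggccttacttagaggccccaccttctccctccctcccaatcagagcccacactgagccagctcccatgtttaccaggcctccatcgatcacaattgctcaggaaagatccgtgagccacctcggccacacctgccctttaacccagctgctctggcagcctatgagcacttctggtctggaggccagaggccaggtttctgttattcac
The core was present in 22.7% and the consensus in 5.98% of all 33469 windows of the same length. A match is a run of letters and not a measured binding site, and its absence says only that these letters are not in this window.

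Values below are relative signals, the processed signal of a probe divided by the 75th percentile of its own array. Differences are on the log2 scale, BBMP minus control, and a gene or probe is called where its Benjamini-Hochberg adjusted p from limma was under 0.05. The probe with the highest mean signal represents a gene in the fit over all 31582 tested genes or sequences, and every other probe is read from a fit over all 42657 tested probes. That percentile was 1244 to 1259 for BBMP rats and 943 to 949.7 for control rats. The share of probes well above background was 70.5% to 72.7% for BBMP rats and 67.2% to 68.6% for control rats. Each group was hybridised on a slide of its own and scanned separately, so an effect of the slide or the scan cannot be told apart from one of BBMP.

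Of the 6 genes, 1 was lower, 0 were higher and 5 did not pass, and their median difference was -0.0027, against 0.049 over all genes tested. Over all genes 17.9% were called, 10.2% higher and 7.68% lower, so 1 call among 6 is close to the share among all genes. The groups did not overlap in 3 of the 6 genes, against 43.6% of all genes, and 3 of the 6 differences were positive, against 56.4% of all genes. The share of all calls that were higher was 57.1%, but 35.9% with median scaling, 36.4% with normexp background correction and 46.6% with cyclic loess, while Slc6a6 was called lower with each of these. Without any 1 array the count of called genes, 5659 with all arrays, was 976, 3 and 1631 (BBMP replicates 1, 2 and 3) and 1828, 1537 and 4002 (control replicates 1, 2 and 3). Normexp moved the median of all genes by -0.11 on the log2 scale.

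**Figure D1:**
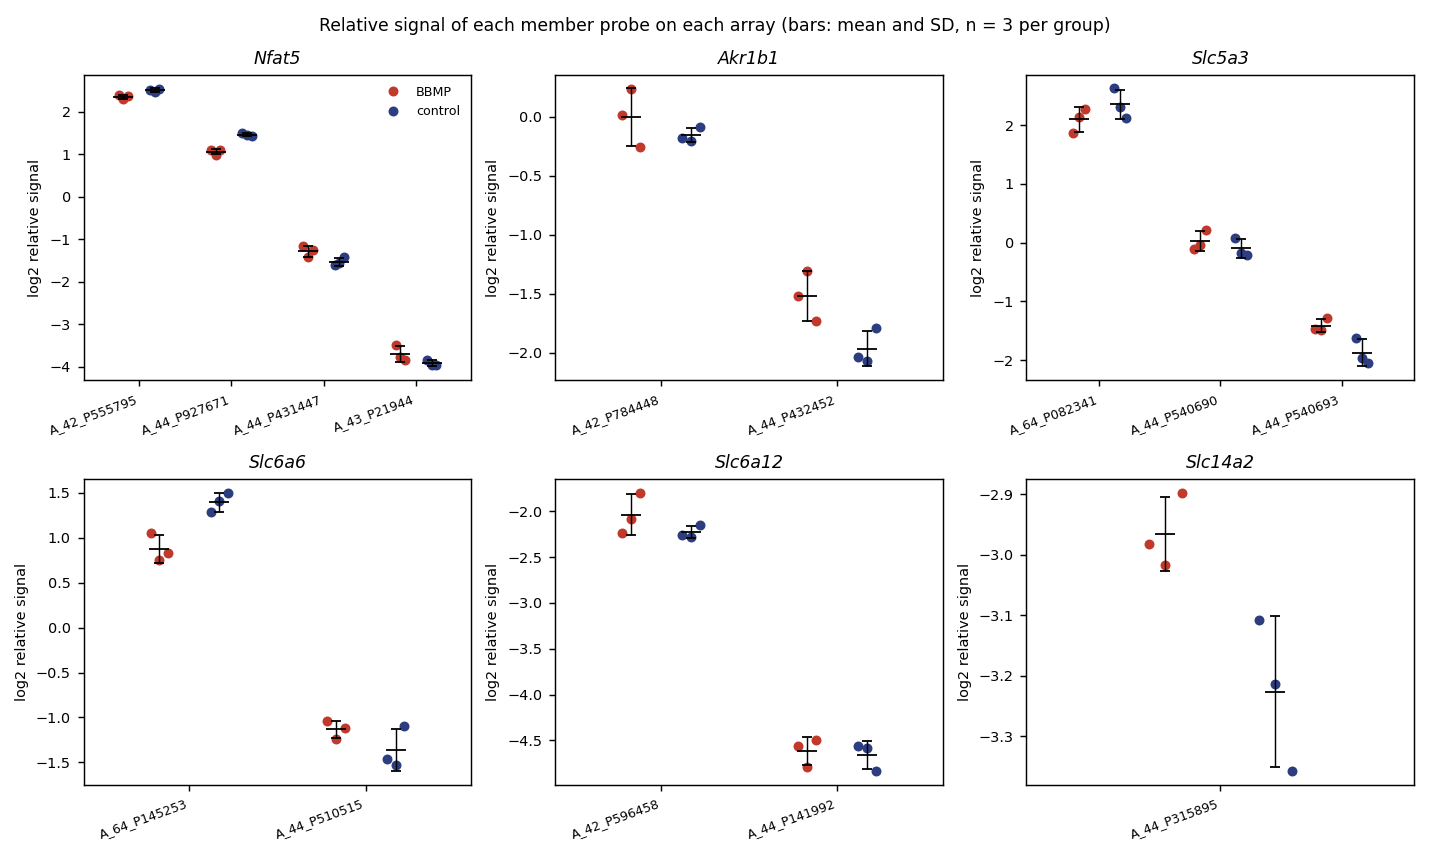
The log2 relative signal of the 14 tested probes of the 6 genes is plotted by array, with BBMP arrays in red on the left and control arrays in blue on the right of each probe; bars are the mean and SD (n = 3 per group). The BBMP points of Slc6a6 probe A_64_P145253, at most 1.05, lie below its control points, at least 1.28.

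Nfat5, the regulator itself, was measured by 4 probes, 2 with a negative and 2 with a positive difference. Probe A_42_P555795, which represents the gene, read 5.23, 4.91 and 5.12 in BBMP rats, against 5.70, 5.51 and 5.83 in control rats. Every BBMP value was below every control value, but the difference of -0.16 ± 0.059 (SE) did not pass (limma adjusted p = 0.114), and its 95% interval ran from -0.30 to -0.013. Median scaling took it past the threshold, at -0.23 (adjusted p = 0.0437). Probe A_44_P927671 fell in the BBMP group, with 2.14, 1.98 and 2.13 in BBMP rats, against 2.82, 2.72 and 2.69 in control rats. It was 1.32-fold lower, a log2 difference of -0.40 ± 0.062 (SE; limma p adjusted over all probes = 0.0169), without overlap of the groups. Probes A_44_P431447 and A_43_P21944 had differences of the opposite sign, 0.25 ± 0.092 and 0.22 ± 0.11 (SE), and neither passed (limma adjusted p = 0.113 and 0.200). In their brightness deciles the median difference of the tested probes was 0.055 and 0.13. The call for A_44_P927671 remained without control replicate 3 (adjusted p = 0.0369), and without any 1 of the other arrays its adjusted p lay between 0.0510 and 0.0595. In slide row 1, which held the BBMP arrays and control replicate 3, it was at -0.37 (adjusted p = 0.170).

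Akr1b1, the sorbitol-producing reductase, did not pass on either of its probes. Probe A_42_P784448 read 1.01, 1.18 and 0.839 in BBMP rats, against 0.884, 0.870 and 0.942 in control rats. The BBMP values spread across the whole control range, and the difference was 0.15 ± 0.13 (SE; limma adjusted p = 0.440, 95% interval -0.17 to 0.48). On probe A_44_P432452 the relative signal was 0.349, 0.405 and 0.302 in BBMP rats, against 0.243, 0.239 and 0.288 in control rats. There the groups did not overlap, and the difference of 0.45 ± 0.13 (SE) missed the threshold (limma p adjusted over all probes = 0.0691). Both probes had a positive difference in every other processing setting that gave them a value.

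Slc6a6, the taurine transporter gene, was lower in BBMP rats on the probe that represents it. Probe A_64_P145253 read 2.08, 1.68 and 1.78 in BBMP rats, against 2.44, 2.65 and 2.82 in control rats. The highest BBMP value was below the lowest control value, and the means were 1.84 ± 0.205 in BBMP and 2.64 ± 0.193 in control rats (SD, n = 3 each). That is 1.43-fold lower, a log2 difference of -0.52 ± 0.10 (SE; limma adjusted p = 0.0274, 95% interval -0.77 to -0.26). The median difference of the tested probes in the same brightness decile was -0.013. In bulk tissue, fewer cells of a type and less RNA per cell cannot be told apart.

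The second Slc6a6 probe, A_44_P510515, had a difference of the opposite sign and did not pass. It read 0.485, 0.424 and 0.461 in BBMP rats, against 0.363, 0.348 and 0.469 in control rats, where control replicate 3 lay within the BBMP range. Its difference was 0.23 ± 0.13 (SE), with a limma adjusted p of 0.265, and with the mean of both probes Slc6a6 was at -0.15 and not called (adjusted p = 0.382). The call on the representing probe remained without BBMP replicate 1 (-0.61, adjusted p = 0.0493). It missed the threshold without BBMP replicate 2 (-0.45, adjusted p = 0.0803), BBMP replicate 3 (-0.49, 0.0813), control replicate 1 (-0.57, 0.0550), control replicate 2 (-0.51, 0.0757) or control replicate 3 (-0.47, 0.0630). In slide row 1 alone it was at -0.62 (adjusted p = 0.156), where 0 genes in all were called and 7178 had an unadjusted limma p under 0.05.

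Slc5a3, the myo-inositol carrier gene, had 1 probe with a negative and 2 with a positive difference, and no call. Probe A_64_P082341 read 3.65, 4.42 and 4.85 in BBMP rats, against 6.16, 4.97 and 4.37 in control rats. The groups overlapped, and the difference was -0.26 ± 0.16 (SE; limma adjusted p = 0.304, 95% interval -0.66 to 0.15). Probe A_44_P540690 was at 0.12 ± 0.12 (SE), with a limma adjusted p of 0.504 over the probes. Probe A_44_P540693 read 0.360, 0.358 and 0.412 in BBMP rats, against 0.326, 0.257 and 0.241 in control rats. These values did not overlap, and the difference of 0.46 ± 0.13 (SE) narrowly missed the threshold (limma p adjusted over all probes = 0.0624), passing with trend and robust moderation (adjusted p = 0.0441) and without control replicate 1 (0.59, adjusted p = 0.0458).

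Slc6a12, the betaine carrier gene, passed on neither of its probes. Probe A_42_P596458 read 0.213, 0.236 and 0.288 in BBMP rats, against 0.209, 0.206 and 0.225 in control rats. The groups overlapped, with BBMP replicate 3 the highest, and the difference was 0.19 ± 0.12 (SE; limma adjusted p = 0.302, 95% interval -0.11 to 0.49). Probe A_44_P141992 was at 0.041 ± 0.11 (SE), with a limma adjusted p of 0.826. With normexp the representing probe turned to -0.046 and the other to -0.17.

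Slc14a2, the UT-A urea transporter gene, was measured by 1 of its 3 probes. Probe A_44_P315895 read 0.127, 0.124 and 0.134 in BBMP rats, against 0.116, 0.108 and 0.0976 in control rats. All BBMP values were above all control values, but the difference of 0.26 ± 0.084 (SE) did not pass (limma adjusted p = 0.0821, 95% interval 0.054 to 0.47), and with normexp it was -0.056. The median difference of the tested probes in its brightness decile was 0.13. The other probes, A_43_P12032 and A_64_P074029, were not well above background on any of the 6 arrays, so they give no fold. Of these, A_64_P074029 is assigned to the same RefSeq transcript as the measured probe and A_43_P12032 to another.

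**Figure D2:**
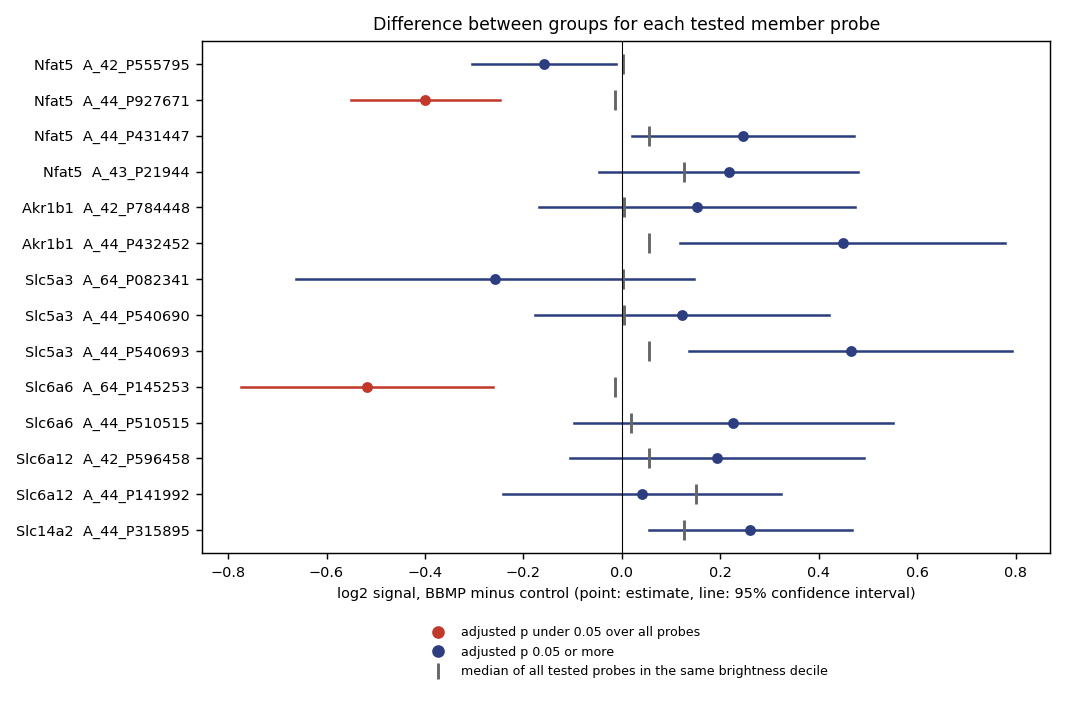
The log2 difference, BBMP minus control, is plotted for each of the 14 tested probes with its 95% confidence interval; red marks an adjusted p under 0.05 over all probes, and the grey bar is the median of all tested probes in the same brightness decile. Only A_44_P927671 of Nfat5 (-0.40) and A_64_P145253 of Slc6a6 (-0.52) were called, while the intervals of 5 other probes also exclude 0 without passing the adjusted threshold.

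Of the 14 tested probes, 2 were called lower and 0 higher, where 17.8% of all tested probes were called, 7.46% lower and 10.3% higher. Without overlap of the groups were 7 of the 14, against 43.4% of all tested probes. In the same fit, 7 had an unadjusted limma p under 0.05. In the fit over all genes, 11564 of 31582 genes had one. Of all 6216 named genes with several tested probes, 34.7% had probes of unlike sign. Nfat5, Slc5a3 and Slc6a6 belonged to these, and Akr1b1 and Slc6a12 did not. In 0.724% of these genes probes were called in both directions, and in none of the 6 genes described here.

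How far the probes of a gene parted can be read on each array without any scaling, as the log2 ratio of the representing probe over another probe of that gene, and this was done for 8 pairs. For Slc6a6 the ratio was 2.10, 1.99 and 1.95 in BBMP rats, against 2.75, 2.93 and 2.59 in control rats. The ratio was therefore lower by 0.74 on the log2 scale in BBMP rats without overlap, and which of the probes moved is not known. An effect of slide or scan that depends on brightness does not cancel in such a ratio, and it was not tested. Over all tested probes the median difference was 0.28 in the dimmest decile and 0.014 in the brightest. In the deciles of A_64_P145253 and A_44_P510515 it was -0.013 and 0.017. For Slc5a3, A_64_P082341 over A_44_P540693 was 3.34, 3.63 and 3.56 in BBMP rats, against 4.24, 4.27 and 4.18 in control rats, and the groups were again apart. For Akr1b1 the ratio differed by -0.30 between BBMP and control rats, and for A_42_P555795 of Nfat5 over A_44_P431447, A_43_P21944 and A_44_P927671 by -0.40, -0.37 and 0.24. The pair of Slc6a12 overlapped, at 0.15. The groups did not overlap in 7 of the 8 pairs, against 42% of all 8849 such pairs in the 6216 named genes with several tested probes. The median size of the difference was 0.38 over the 8 pairs and 0.16 over all pairs, and pairs of 1 gene share their representing probe, so the 8 are not independent. For the 7 pairs the exact two-sided permutation test gave p = 0.1, the smallest p that 3 arrays against 3 allow (adjusted over 8 pairs 0.114), so the test could not reach 0.05. With normexp, tried after the values were seen, the Slc6a6 difference was -0.77 and that of the same Slc5a3 pair -0.51.

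**Figure D3:**
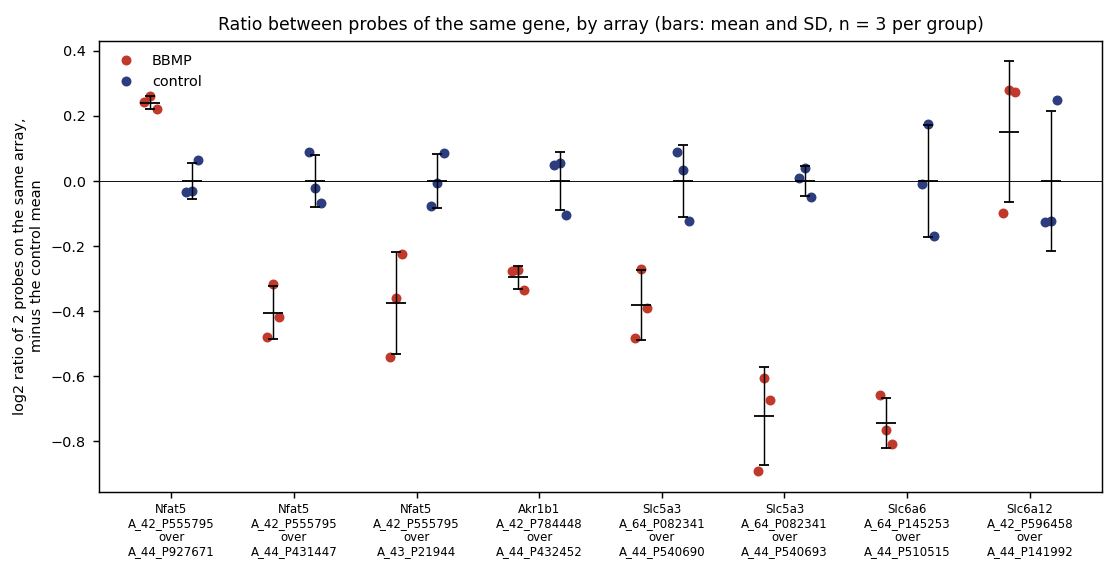
The log2 ratio between probes of the same gene on the same array is plotted after subtracting the control mean, with BBMP arrays in red on the left and control arrays in blue on the right; bars are the mean and SD (n = 3 per group). In 7 of the 8 pairs the BBMP arrays lie apart from the control arrays, by up to -0.74 for Slc6a6, where 42% of all same-gene pairs on the array do so, and the pair of Slc6a12 overlaps.

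Genes with the most similar pattern were ranked by Pearson's r to the representing probe over the 6 arrays, among 11588 named genes that passed the detection flag on each array. The 6 points fall into 2 groups that also differ in slide and scan, so r is given only as a description. For Slc6a6 these were Sbf2 (r = 0.997), Lta4h (0.997) and Ptn (0.996), and 572 genes had an r above 0.9. For Nfat5 they were Srsf5, Dock8 and Plod2 (0.990, 0.988 and 0.986), with 507 genes above 0.9. Far fewer genes were as close to Akr1b1 and Slc5a3, with 60 and 65 above 0.9. Closest to Akr1b1 were Arl6ip4, Or5m8 and Slc39a3 (0.993, 0.983 and 0.982), and closest to Slc5a3 were Gnat3, Arhgap21 and Serinc3 (0.985, 0.983 and 0.979). The nearest to Slc6a12 were Cdk6, Vom2r60 and Ptprn2 (0.988, 0.973 and 0.970), with 95 above 0.9, and the nearest to Slc14a2 were Ormdl1, Ankh and Rpl10a (0.997, 0.994 and 0.994), with 307.

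Another 48 genes of the pathway were read in 6 lists, of which 42 were matched on the array and 41 passed the filter. Limma called 3 higher and 2 lower, and the median difference was 0.011, against 0.049 over all genes. The 5 called genes of 41 compare with 17.9% of all genes tested, and none of these lists was tested as a set. Of the 5 called genes only Lrrc8a had another tested probe, so the others rest on a single probe. That Lrrc8a probe was at 0.12, of the same sign, and did not pass (limma p adjusted over all probes = 0.806).

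Genes other than the 6 that NFAT5 is known to regulate in renal or other cells gave 0 calls among 7 tested. None of them had an unadjusted limma p under 0.05. Among all 31582 tested genes, 17.9% were called and 11564 had an unadjusted limma p under 0.05. Hspa1a, which encodes the chaperone Hsp70, had the smallest p of the list, at 0.29 ± 0.17 (SE; limma adjusted p = 0.265). Aqp2, the vasopressin-regulated water channel, was at 0.011 ± 0.12, and Slc38a2, a neutral amino acid carrier, at -0.21 ± 0.16 (SE). Sgk1, a kinase induced by aldosterone and by osmotic stress, varied widely between animals, with 2.38 to 8.90 in BBMP rats and 4.42 to 12.7 in control rats. These overlapped widely, and the difference of -0.95 ± 0.60 (SE) did not pass (limma adjusted p = 0.303). Aqp2, Slc38a2 and Sgk1 were chosen after their values were seen.

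NFAT5 resembles the calcineurin-dependent NFAT family in its DNA-binding domain but not in its control by calcineurin. Of 2 tested genes of that family 0 were called, against 17.9% of all genes. Nfatc3 was at -0.13 ± 0.063 (SE; limma adjusted p = 0.188), and 2 of its 4 other tested probes had the opposite sign. Of these, A_64_P077002 was called higher (0.65, limma p adjusted over all probes = 0.0164). It is a dim probe, and the median difference of the tested probes in its brightness decile was 0.28. Among 8 tested NFAT5 regulators and partners (median -0.074), 1 was lower and 0 were higher, against 7.68% and 10.2% of all genes. That gene was Ddx5, an RNA helicase, with 22.3, 21.6 and 21.9 in BBMP rats, against 27.7, 27.9 and 28.4 in control rats. The groups were well apart, and Ddx5 was 1.28-fold lower (log2 difference -0.35 ± 0.053, SE; limma adjusted p = 0.0161). Its adjusted p was between 0.0515 and 0.0607 without control replicate 2 or any 1 BBMP replicate, and under 0.05 without control replicate 1 (0.0488) or control replicate 3 (0.0387). Fyn, chosen after its values were seen, was not called (0.13). Its other tested probe, A_44_P149080, was called higher (0.46, limma p adjusted over all probes = 0.0367). In the brightness decile of that probe the median difference was 0.15.

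Among 8 tested enzymes that make or break down organic osmolytes, 1 was higher and 0 were lower, against 10.2% and 7.68% of all genes. This was Isyna1, which encodes inositol-3-phosphate synthase, the first step of myo-inositol synthesis, with 2.27, 2.39 and 2.48 in BBMP rats, against 1.71, 1.77 and 1.93 in control rats. It was 1.32-fold higher without overlap (0.40 ± 0.073, SE; limma adjusted p = 0.0226). Leaving out control replicate 3 kept its adjusted p under 0.05 (0.0354), and leaving out any 1 other array gave 0.0594 to 0.0745. Sord, sorbitol dehydrogenase, and Miox, which opens the myo-inositol ring in proximal tubule, were at -0.11 ± 0.11 and -0.040 ± 0.063 (SE) and did not pass (limma adjusted p = 0.497 and 0.683). Another Miox probe had the opposite sign and did not pass (0.12, limma p adjusted over all probes = 0.254). Chdh, also on this list, was not called (0.079), but its other tested probe was called higher (0.51, limma p adjusted over all probes = 0.0257). Sord, Miox and Chdh were chosen after their values were seen.

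The list of other osmolyte carriers and channels had the most calls, 2 higher and 1 lower of 9 tested, with a median of 0.30. Of all genes tested, 10.2% were called higher and 7.68% lower, and whether the lists differ from this was not tested. Slc6a13, which encodes a transporter of GABA, taurine and betaine, had 4.64, 5.50 and 5.29 in BBMP rats, against 3.89, 3.91 and 4.21 in control rats. It was 1.28-fold higher (0.36 ± 0.086, SE; limma adjusted p = 0.0409). Its adjusted p was 0.0811 with median scaling, 0.0580 when dim probes were kept and 0.0548 to 0.112 without any 1 array.

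LRRC8 proteins form the volume-regulated anion channel, through which swollen cells release chloride and organic osmolytes such as taurine, and the 2 called members moved in opposite directions. Lrrc8d, a subunit that favours release of uncharged osmolytes, had 2.55, 2.63 and 2.45 in BBMP rats, against 3.70, 4.42 and 3.85 in control rats. It was 1.56-fold lower without overlap (-0.64 ± 0.086, SE; limma adjusted p = 0.0137). Without BBMP replicate 1 or 2 its adjusted p was 0.0516 and 0.0540, and without any 1 of the other arrays it was under 0.05. Lrrc8a, the obligatory subunit of the channel, had 0.465, 0.447 and 0.418 in BBMP rats, against 0.369, 0.351 and 0.359 in control rats. It was 1.23-fold higher (0.30 ± 0.065, SE; limma adjusted p = 0.0326), but it missed the threshold with median scaling (0.0666), when dim probes were kept (0.0537), with its probes averaged (0.411) and without any 1 array (0.0570 to 0.0955). Lrrc8b, Lrrc8c and Lrrc8e did not pass.

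Of 7 tested genes of urea handling, 0 were called, and 2 had an unadjusted limma p under 0.05. Among all 31582 tested genes, 17.9% were called and 11564 had an unadjusted limma p under 0.05. Aqp7, a channel for glycerol, water and urea in the proximal tubule, had 16.4, 19.7 and 17.5 in BBMP rats, against 14.6, 14.7 and 13.9 in control rats. Although the groups did not overlap, the difference of 0.31 ± 0.084 (SE) did not pass (limma adjusted p = 0.0564), and it passed with normexp (0.0190) and with trend and robust moderation (0.0272). Slc14a1, chosen after its values were seen, which encodes the UT-B urea transporter of vasa recta and red cells, was the other, at 0.71 ± 0.21 (SE; limma adjusted p = 0.0647). It read 0.0403, 0.0623 and 0.0514 in BBMP rats, against 0.0363, 0.0323 and 0.0250 in control rats, on 1 measured probe. In the brightness decile of that probe the median difference of the tested probes was 0.15. The other Slc14a1 probe was not well above background on any array.

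**Figure D4:**
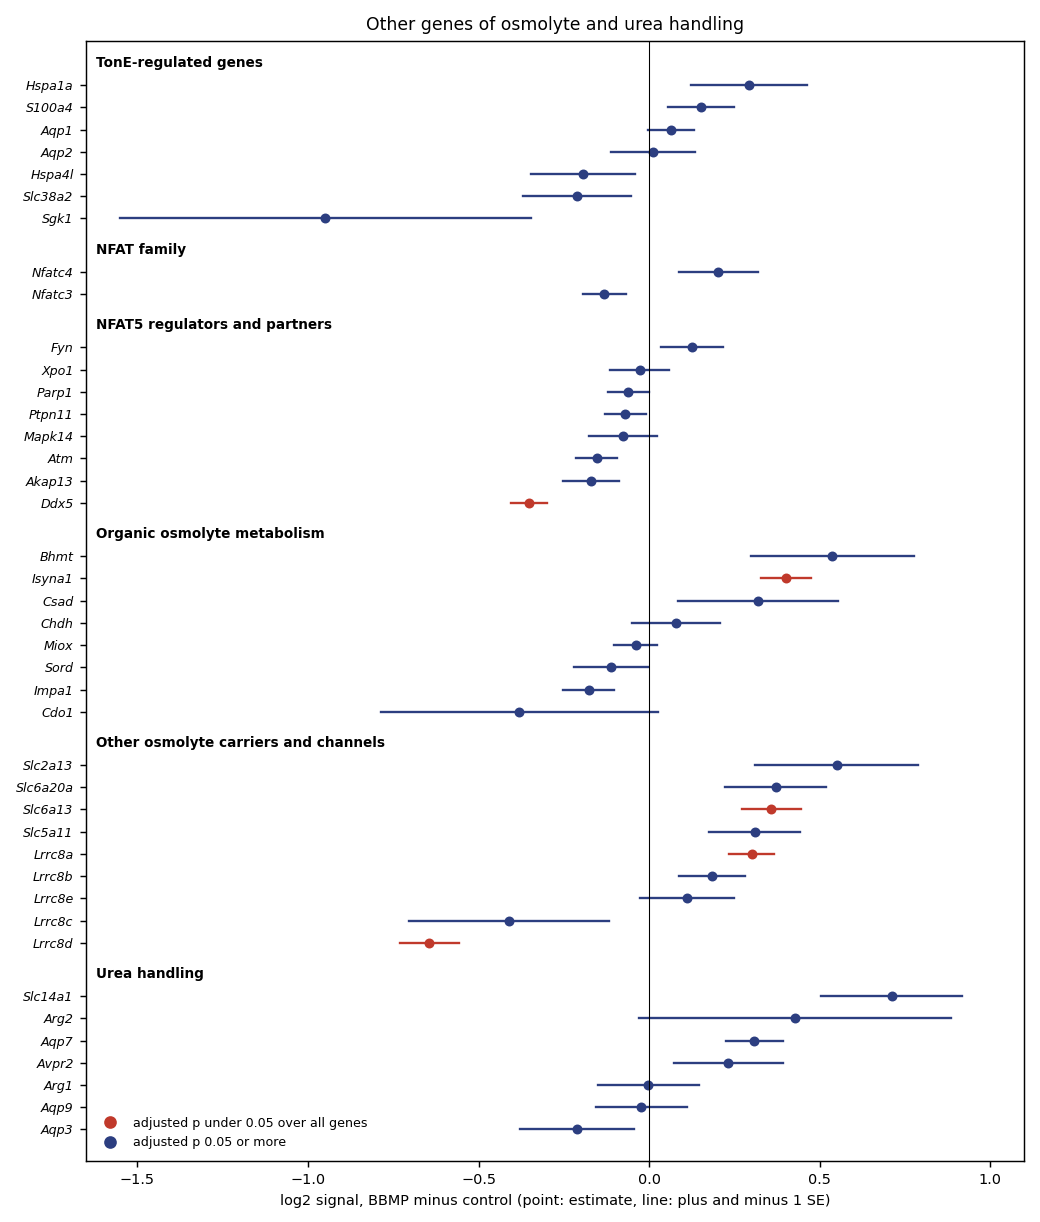
The log2 difference, BBMP minus control, of 41 other genes is plotted by list with 1 SE on each side; red marks an adjusted p under 0.05 over all genes. Called were 5 genes, Ddx5 and Lrrc8d lower and Isyna1, Slc6a13 and Lrrc8a higher, and Sgk1 has the widest error.

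Because the osmolyte genes are known mainly from deeper kidney, markers of nephron segments were read beside them. Proximal tubule genes, the mark of cortex, were measured for 6 of 6 listed, with 0 called, where 17.9% of all genes were called. Their summed relative signal lay between 1202 and 1237 in BBMP rats and between 1129 and 1244 in control rats. Of 9 tested markers of collecting duct principal cells, 3 were lower (Aqp4, Hsd11b2 and Elf5) and 0 higher, where 7.68% of all genes were lower, and these 3 were also the ones without overlap, against 43.6% of all genes. Another tested Aqp4 probe had the opposite sign. The 6 not called were Avpr2 (0.23), Scnn1b (0.078), Gata3 (0.027), Aqp2 (0.011), Scnn1g (-0.12) and Aqp3 (-0.21). The summed relative signal of the 9 was 168 to 185 in BBMP rats and 190 to 206 in control rats, but without Hsd11b2 the sums overlapped, at 127 to 152 in BBMP rats and 134 to 158 in control rats. The part of these markers in the lower Slc6a6 signal was not tested. Of 8 urothelium markers, 4 (Upk2, Krt13, Krt20 and Psca) did not pass the filter, of which Upk2 was not well above background on any array. Upk1b was called higher, and the 4 measured summed to 0.358 to 0.455 in BBMP rats and 0.298 to 0.368 in control rats. These sums overlapped. Upk3a, which is part of them, passed the filter through the BBMP group alone, with 3 BBMP arrays but only 1 control array flagged. The 4 genes were dim, and the median difference of the tested probes in their brightness deciles ran from 0.062 to 0.28. The part of this dim-probe difference in the sums was not tested.

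**Figure D5:**
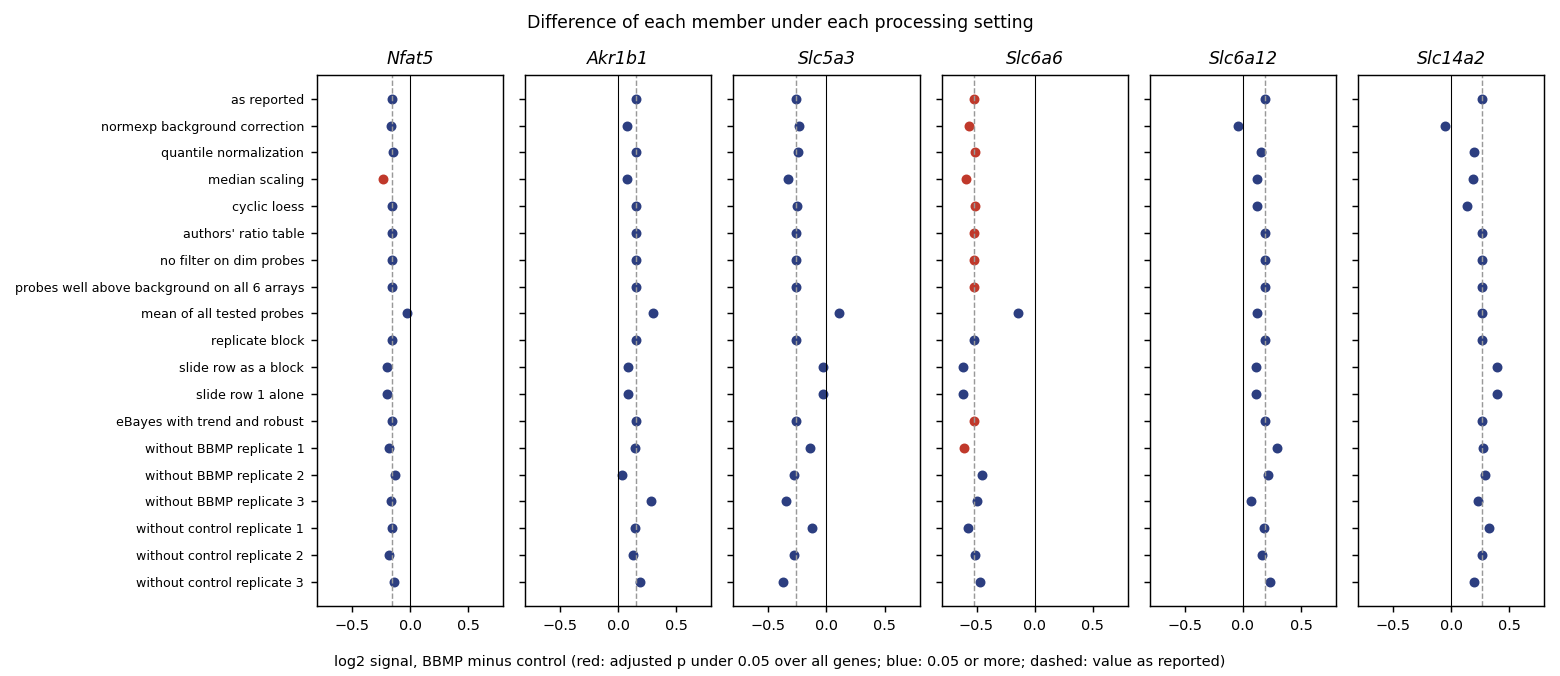
The log2 difference, BBMP minus control, of each of the 6 genes is plotted for the reported setting and 18 others; red marks an adjusted p under 0.05 over all genes and the dashed line is the reported value. Slc6a6 stayed negative in all 18 and was called in 9 of them, while Slc5a3, Slc6a12 and Slc14a2 crossed 0 in 1 each.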

How the data were processed

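Renal cortex of 6 rats was read on 6 one-colour arrays, grouped by their sample titles. Per the file headers, the authors read each array with Agilent Feature Extraction 10.7.1.1 (10.7 per the submitters' processing notes), which gave intensity on a linear scale, as a processed signal corrected for background and as the raw median signal. Per the file headers, the deposited flags for well above background, saturation and outliers are scored 0 or 1. The authors' deposited table holds 1 ratio per probe and array, close to the processed signal over the array's 75th percentile (median gaps of 0.0036 to 0.0058 on the log2 scale). Each of its columns was closest to the scanner file of another replicate of the same group, so replicate numbers are uncertain, and replicates are numbered here by scanner file.

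Of 61657 non-control probes, 84 ERCC spike-in probes and 10 probes with an outlier flag were left out. Processed signals were divided by the 75th percentile of their array, put on the log2 scale and tested with limma 3.58.1 (R 4.3.3; lmFit, eBayes, Benjamini-Hochberg). A probe entered if every array of either group flagged it well above background. Names came from unversioned RefSeq accessions in a GRCr8 table, which named 27452 probes; the array design is based on rn4. The fit was tested on simulated data. The 6 genes, the gene lists, the tests and most alternatives were chosen with earlier results of these data known. Named were all probes of the 6 genes, every called gene of the other lists, the gene with the smallest p of a list with no call, and the 3 genes most similar to each of the 6. Precision is limited by the 3 arrays in each group. The markers of thin limb and inner medulla are not reported here.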

Additional observations from a re-analysis of the deposited data

How the results depend on the processing

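The count of called genes, 5659, stayed within 1.5 times of that number with other normalizations, normexp, other filters on dim probes, the mean of probes, the authors' ratio table and trend and robust moderation. It was 0 with replicate number as a replicate block, with slide row as a block and in slide row 1 alone, where 9943, 7288 and 7178 genes had an unadjusted limma p under 0.05. Without any 1 array it ranged from 3 (without BBMP replicate 2) to 4002. Of the 6 genes, 1 was called as reported, 2 with median scaling, and 0 with the mean of all probes, the replicate block, the slide row block or row 1 alone, with 0 to 1 when 1 array was left out. Of the 14 probes, 0 were called with the replicate block, the slide row block or row 1 alone, and 0 to 1 with 1 array left out. The other lists had 3 called genes with median scaling or no filter on dim probes, 0 with either block or in row 1 alone, and 0 to 3 with 1 array left out, against 5. Slc6a6 was at -0.52 with the replicate block (adjusted p = 0.0947), -0.62 with the slide row block (0.119) and -0.62 in row 1 alone (0.156). Deviations of same-numbered samples from their group means had r of -0.116, -0.082 and -0.0676. With 3 arrays in each group and uncertain replicate numbers, these values cannot decide whether samples were paired. Signs turned for Slc5a3 (0.11) and Nfatc3 (0.11) with the mean of their probes, for Slc6a12 (-0.046) and Slc14a2 (-0.056) with normexp, and for probe A_44_P510515 of Slc6a6 with the slide row block and in row 1 alone (-0.042). Probe A_44_P141992 of Slc6a12 turned to -0.17 with normexp, -0.090 with quantile normalization, -0.034 with median scaling, and -0.14 with cyclic loess, and ranged from -0.045 to 0.13 when 1 array was left out (-0.019 without BBMP replicate 3). None of these was called either way, and the cause of each change was not tested, apart from fewer arrays when 1 was left out. Dim probes limit Slc14a2, with 1 of 3 probes measured.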
